A study of Mus musculus with 83 samples.

Results

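The endoplasmic reticulum chaperone genes were followed as a fixed list of 9 genes, Hspa5, Dnajb11, Hyou1, Hsp90b1, Calr, Canx, Pdia3, Pdia4 and Pdia6, chosen by name from the 27752 genes counted in every library. RNA polymerase II (Pol II) was profiled by CUT&Tag, in which an antibody brings a transposase to the bound protein so that the surrounding DNA is cut out and sequenced, and the reads over each whole gene were counted in 24 libraries of mouse embryonic stem cells (mESCs), 2 libraries per group. C64 cells carry a degron on both alleles of Tbp (mAID-TBP), so that indole-3-acetic acid (IAA, 500 µM) removes the TATA-box binding protein. B8 cells are a single clone derived from C64 that also lacks Tbpl1, the gene of the TBP paralogue TRF2, so all groups share the mAID-TBP background.

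The C64 libraries of run 2 were untreated controls, cells given IAA for 6 h, cells heat shocked at 42 °C for 30 min, and cells given both. The C64 libraries of run 3 were untreated controls, cells given IAA for 16 h, cells given retinoic acid (RA) for 16 h, and cells given both. The RA concentration is left out here because the sources used differ on it. The B8 libraries were untreated controls and cells given IAA for 6 h, in runs 6 and 8. Where a library of run 2 or run 8 is called first or second, this is the order of its count column. It is not a sample number, since these columns match groups only. The labels call the controls untreated, and the methods of the study give the IAA vehicle, DMSO, for the control. The study calls its Pol II replicates biological, but the labels name no separate cultures. The p-values thus measure the spread between the libraries of a group, which may be technical. The tests share information on that spread between genes.

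These 9 genes encode the proteins that fold secreted and membrane proteins as they enter the endoplasmic reticulum (ER). BiP, the product of Hspa5, binds unfolded chains and is assisted by the J-domain cochaperone encoded by Dnajb11 and the nucleotide exchange factor encoded by Hyou1, while Hsp90b1 encodes GRP94, the HSP90 of the ER. Calreticulin (Calr) and calnexin (Canx) are lectins that hold sugar-bearing chains, and Pdia3, Pdia4 and Pdia6 encode disulfide isomerases. When unfolded protein builds up, the unfolded protein response (UPR) raises transcription of many such genes through ATF6, XBP1 and ATF4, the first of which acts with NF-Y at the ER stress response element (ERSE).

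The ERSE is the feature that most of these promoters share, and its positions are shown here so that the Pol II values of its holders can be read against it. RefSeq promoters (GRCm38.p6, from 250 bases before to 50 bases after the start) were held for 8 of the 9 genes, all but Hyou1. The letters CCAAT and CCACG with 9 bases between them, searched on both strands, occurred in 5 of these 8 promoters (Hspa5, Hsp90b1, Calr, Canx and Pdia6) and in 0.119% of all 32851 promoters. The promoter of Hsp90b1 held 2 of them. ERSE-II, ATTGG and CCACG with 1 base between them, occurred in the Dnajb11 promoter, from base 8 to base 18 after the start, and in 0.0365% of all promoters. It shares the letters CCACG with the ERSE, and no ERSE overlapped it. Pdia3 and Pdia4 held neither. In the lines that follow, written 5′ to 3′ on the strand of the gene, capitals mark the fixed letters of the ERSE, of ERSE-II in Dnajb11, and of the TATA box TATATAA in the second line of Hspa5.
Hspa5, chr2:34772020-34772048, plus strand: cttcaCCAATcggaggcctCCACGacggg
Hspa5, chr2:34772054-34772074, plus strand: ggggagggTATATAAggcgag
Hsp90b1, chr10:86705513-86705676, minus strand: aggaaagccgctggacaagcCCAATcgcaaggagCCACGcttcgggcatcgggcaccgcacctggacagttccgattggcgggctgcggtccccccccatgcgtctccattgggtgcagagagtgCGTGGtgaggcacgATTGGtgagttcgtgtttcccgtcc
Calr, chr8:84847045-84847123, minus strand: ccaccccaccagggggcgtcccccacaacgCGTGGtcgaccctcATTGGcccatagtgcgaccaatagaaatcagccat
Canx, chr11:50325770-50325848, minus strand: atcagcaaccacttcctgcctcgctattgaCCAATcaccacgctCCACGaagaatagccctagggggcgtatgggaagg
Pdia6, chr12:17266461-17266539, plus strand: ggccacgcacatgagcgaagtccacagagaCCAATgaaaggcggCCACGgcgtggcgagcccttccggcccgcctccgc
Dnajb11, chr16:22857846-22857868, plus strand: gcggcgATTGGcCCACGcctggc

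The ERSE of Calr reads on the strand opposite to the gene, as does the ERSE of Hsp90b1 nearer to the start. The ERSE of Hspa5 ended 47 bases before the RefSeq start, and TATATAA, which 3.24% of all promoters hold, began 28 bases before it. Of the other letters searched, the core TGACGT bound by ATF and CREB factors occurred in Hspa5, Canx and Dnajb11 (7.51% of all promoters), and the heat shock element, GAA, TTC and GAA with 2 bases between each, occurred in 0 of the 8 against 0.603% of all promoters. No match says only that these letters were not in this window. In the gene lists deposited with the study, Hspa5, Calr, Pdia6 and Hyou1 were on the TATA list and the other 5 on the TATA-less list.

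**Figure D1:**
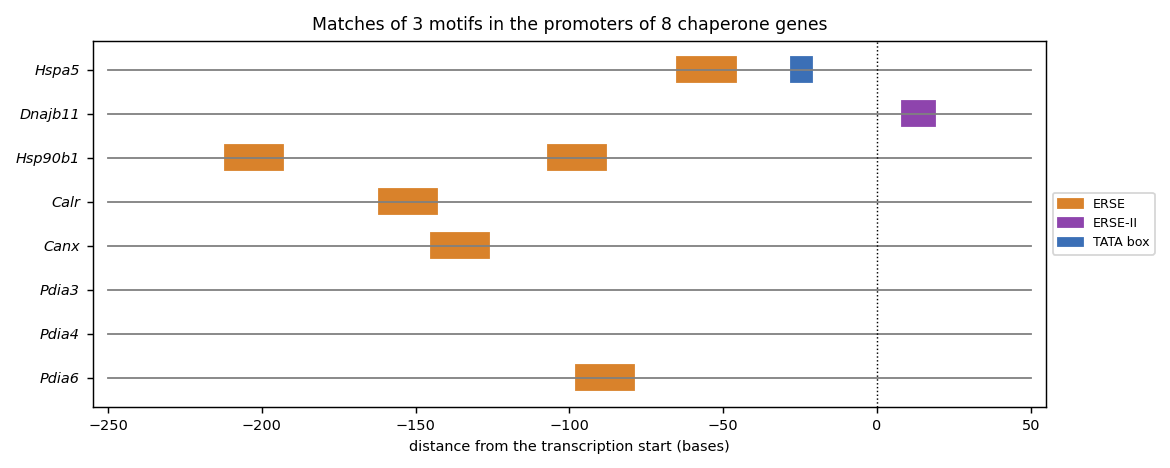
Matches of the ERSE (orange), ERSE-II (purple) and TATATAA (blue) in the promoters of 8 chaperone genes, by distance in bases from the RefSeq start (dotted line); Hyou1 is not drawn. The ERSE matches of 5 genes lie between 212 and 47 bases before the start, and the 3 isomerase promoters hold 1 match between them, in Pdia6.

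Total counts were 3854622 to 5056322 reads per C64 library, 900651 to 1157308 in B8 run 6 and 2330887 to 2523832 in B8 run 8, so single values are least precise in run 6, where a chaperone gene had as few as 12 reads. Tbpl1, deleted in B8, was at 0 to 4.34 CPM (reads scaled to a common library size) in the B8 libraries and at 6.18 to 15.8 CPM in C64. Tbp, whose protein but not whose gene is removed by IAA, was at 22.04 to 44.9 CPM in C64. Esrrb and Tfcp2l1, the highest of 12 stem cell markers, were at no less than 203 and 158 CPM in every C64 library. Other stem cell markers were low, with Pou5f1 at 3.05 to 17.9 and Nanog at 5.44 to 17.9 CPM in C64. Some markers of other cell types were higher than these, with Gata4 at 83.9 to 171 and Pax6 at 49.3 to 129 CPM. Others were as low, with T at 2.90 to 9.11 and Thy1 at 1.70 to 4.65 CPM. These CPM are over whole genes and are not divided by gene length. The stem cell marker Sox2 and the neuroectoderm markers Sox1 and Tubb3 were listed at 0 throughout. Reads over overlapping genes are left out of the counts, so these zeros do not show that Pol II was absent. The second B8 control library of run 6 stood apart, with correlations of 0.869 to 0.901 (Pearson r of log2 CPM) with the other 7 B8 libraries, against 0.912 to 0.974 among those 7, and results that rest on it are given with and without it. Because whole cultures were measured, fewer cells with Pol II on a gene and less Pol II per cell cannot be told apart.

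Per kilobase of gene, Hspa5 and Calr carried by far the most Pol II of the 9 genes. Averaged over the 16 C64 libraries, the level was 17.9 ± 6.91 CPM per kb at Hspa5 and 15.3 ± 6.37 at Calr (SD, n = 16), above 99.1% and 98.8% of the genes tested. The next were Hyou1 at 4.6, Pdia3 at 4.27, Canx at 3.98 and Pdia6 at 3.51 CPM per kb, followed by Pdia4 at 2.59, Hsp90b1 at 2.48 and Dnajb11 at 1.64 CPM per kb. In this order only the steps from Calr to Hyou1 and from Hsp90b1 to Dnajb11 held in all 16 libraries, and each other step held in 8 to 13 of the 16. Part of the reads of Hsp90b1 could not be counted, since 4598 bp of it overlap the antisense gene 1810014B01Rik, while the overlaps of Pdia3, Pdia4 and Pdia6 with other genes spanned 18 to 77 bp. The B8 tables list more genes, among them Gm30505, which overlaps 4652 bp of Dnajb11, and Gm25745, which overlaps 133 bp of Hsp90b1, and the C64 control columns of run 2 that are deposited in both kinds of table hold the same counts of shared genes in each. In mm10, the counted gene models, exons and introns together, span chr2:34771970-34777547 for Hspa5, chr16:22857845-22879634 for Dnajb11, chr9:44379490-44392369 for Hyou1 and chr10:86690209-86705509 for Hsp90b1. Those of the lectins span chr8:84841850-84846934 for Calr and chr11:50293961-50325673 for Canx, and those of the isomerases chr2:121413775-121438687 for Pdia3, chr6:47796141-47813430 for Pdia4 and chr12:17266545-17284770 for Pdia6.

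The first comparison asked how loss of TBP changed Pol II on these genes. Taken over all 6 contexts in which IAA was given (C64 in run 2, heat shock, C64 in run 3, RA, and B8 in runs 6 and 8), all 9 chaperone genes had less Pol II with IAA, with a median log2 fold change of -0.47 against -0.00 over all 17873 genes tested, of which 50.3% were below 0. Hspa5, Pdia6 and Hsp90b1 fell (edgeR quasi-likelihood test with context as a term, Benjamini-Hochberg adjusted over all genes), as did 0.733% of all genes. Mean CPM was lower with IAA in each of the 6 contexts at 7 of the 9 genes, which held for 5.26% of all genes, and in 5 of the 6 at Calr and Pdia4. The plot of CPM in each library shows these values for all 9 genes.

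**Figure D2:**
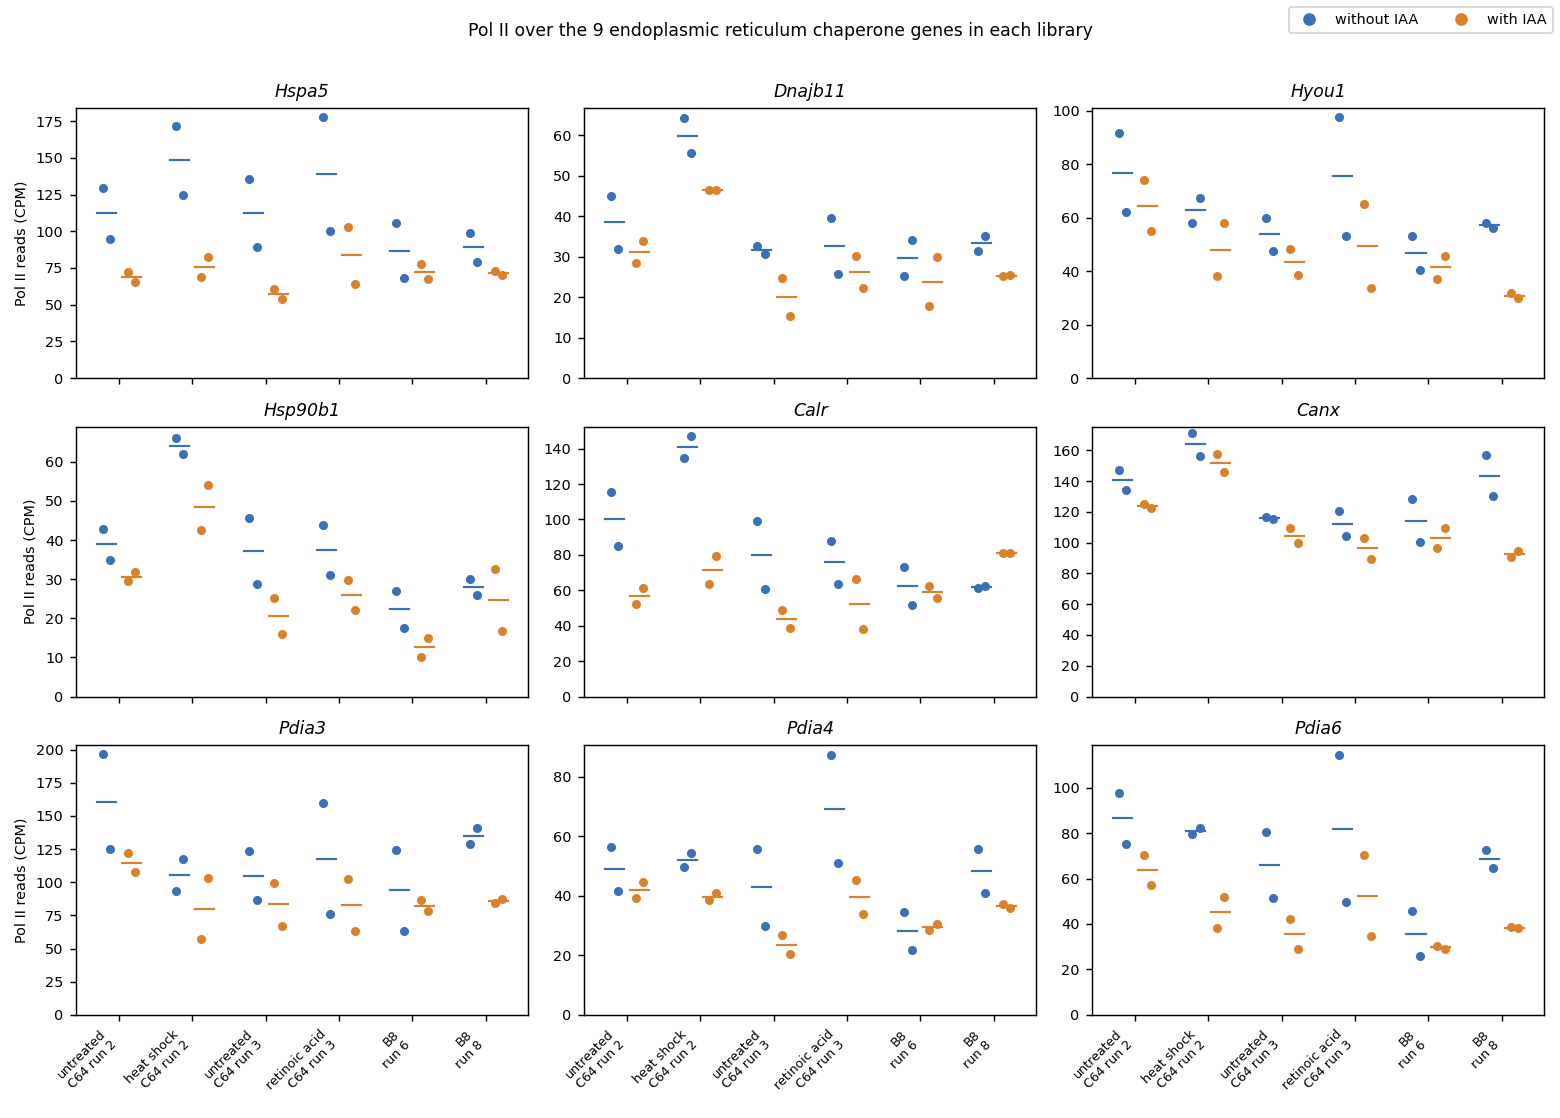
Pol II reads over each chaperone gene (CPM, linear axes from 0) in every library, without IAA (blue) and with IAA (orange), for 6 contexts; points are the 2 libraries of a group and lines are their means. At Hspa5 the IAA means lie below the means without IAA in all 6 contexts, and at Calr they lie above in B8 run 8.

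Hspa5, the gene of BiP, had the smallest adjusted p of the 9 genes over the 6 contexts. In run 2 it was at 129.5 and 95.05 CPM in the C64 controls and at 72.4 and 65.3 CPM after 6 h of IAA, and under heat shock it was at 171.8 and 124.7 CPM without IAA and 69.1 and 82.7 CPM with it. In run 3 it was at 135.9 and 89.6 CPM in the controls and at 60.4 and 53.8 CPM after 16 h of IAA. The groups did not overlap in any of these 3 contexts. In each context taken alone, IAA libraries lay below without overlap at 14% of all genes at 6 h, 12.5% under heat shock and 15.1% at 16 h. Under RA, by contrast, the values of 177.7 and 100.1 CPM without IAA overlapped those of 103.0 and 64.01 CPM with it. Over the 6 contexts the log2 fold change of Hspa5 was -0.68 (SE 0.118, 95% interval -0.92 to -0.44, adjusted p = 0.00143), and it passed the threshold in each of 35 alternative fits, with an adjusted p of at most 0.0202.

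Pdia6, which encodes the isomerase P5, moved by nearly as much. It was at 97.7 and 75.2 CPM in the C64 controls of run 2 and at 70.2 and 57.1 CPM after 6 h of IAA, at 79.5 and 82.4 CPM under heat shock and at 38.3 and 52.0 CPM under heat shock with IAA, and at 80.4 and 51.5 CPM in the controls of run 3 and 42.1 and 29.2 CPM after 16 h of IAA. The groups were apart in each of these pairs. Its log2 fold change over the 6 contexts was -0.68 (SE 0.135, 95% interval -0.95 to -0.40, adjusted p = 0.00672), and it passed in 34 of the 35 alternatives. The exception was the fit to the 4 C64 contexts alone (adjusted p = 0.209).

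Hsp90b1, the gene of GRP94, was at 42.9 and 35.0 CPM in the controls of run 2 against 29.5 and 31.8 CPM after 6 h of IAA, and at 45.5 and 28.8 CPM in the controls of run 3 against 25.3 and 15.9 CPM after 16 h. Controls and IAA libraries did not overlap in either run. Its log2 fold change over the 6 contexts was -0.50 (SE 0.123, adjusted p = 0.0464), which lay just inside the threshold, and it passed in 14 of the 35 alternatives. Of the 24 fits without 1 library it passed in 7 (adjusted p of at most 0.122), those without the B8 control library that stood apart, the first B8 IAA library of run 8, the second control or the second heat shock and IAA library of run 2, and the second control, the second RA or the first RA and IAA library of run 3.

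The other 6 genes had log2 fold changes from -0.24 (Canx) to -0.52 (Calr) over the 6 contexts, with adjusted p from 0.0669 to 0.157 and unadjusted p under 0.05 in all 6 (6.38% of all genes in the lower direction). Canx, the membrane-bound lectin, moved least, by -0.24 (95% interval -0.39 to -0.09). All 9 estimates were below 0 in all 35 alternatives. Of these, 24 each left out 1 library and so shared most of their data with the main fit. The replicate numbers of run 3 pair its libraries, whose deviations from the group means go together, and with those numbers as a block 8 of the 9 genes fell, all but Canx, against 1.45% of all genes. In that fit the log2 fold change of Calr was -0.53 (SE 0.112, adjusted p = 0.00704) and that of Pdia3 -0.43 (SE 0.100, adjusted p = 0.0159).

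Fits to fewer libraries gave other calls. In the 4 C64 contexts alone, Hspa5 (log2 fold change -0.85, adjusted p = 0.0202) and Calr (-0.80, adjusted p = 0.0210) fell, against 0.148% of all genes, while Pdia6 (-0.70, adjusted p = 0.209) and Hsp90b1 (-0.53, adjusted p = 0.278) did not pass, with log2 fold changes close to those over 6 contexts. Without the B8 control library that stood apart, Hspa5, Hsp90b1, Calr, Pdia4 and Pdia6 fell, against 0.868% of all genes. Leaving out the second C64 control of run 2 kept all 9 estimates below 0.

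**Figure D3:**
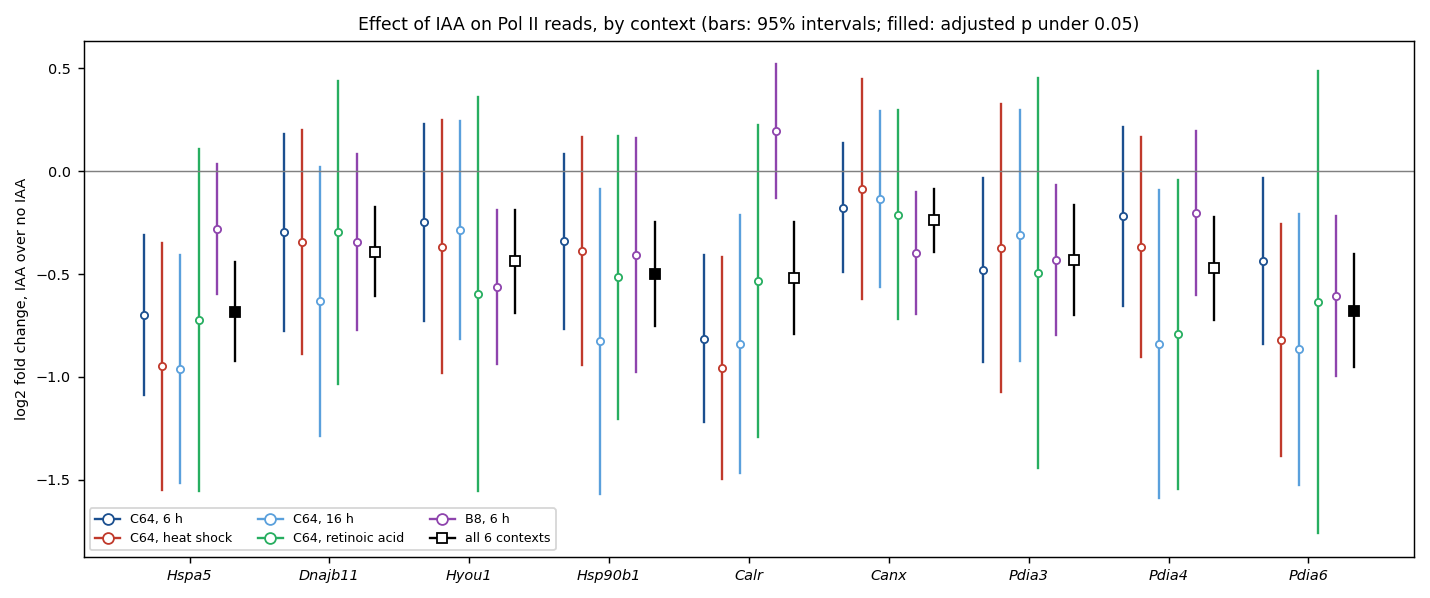
Log2 fold change of Pol II reads with IAA over without IAA for each chaperone gene, with 95% intervals, in C64 at 6 h, C64 under heat shock, C64 at 16 h, C64 under RA, B8, and over all 6 contexts (black squares); filled symbols passed an adjusted p of 0.05. All estimates except that of Calr in B8 lie below 0, and the filled squares are those of Hspa5, Hsp90b1 and Pdia6.

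In the single C64 contexts, 0 of the 9 genes passed edgeR's quasi-likelihood test, edgeR's likelihood-ratio test or DESeq2 with 2 libraries against 2, while all 9 estimates were below 0 in each, as were 49.2% of all genes at 6 h, 48.5% at 16 h, 51.6% under heat shock and 46.5% under RA. By the first test 0.0433% of all genes fell at 6 h and 0 in the other 3 contexts. These 4 comparisons share no libraries with each other. Leaving out 1 library moved some of their estimates above 0, to at most 0.11. These were Hyou1 and Pdia4 at 6 h, Canx under heat shock, and Pdia3, Pdia6 and Dnajb11 under RA. All estimates at 16 h stayed below 0. At 6 h the median log2 fold change of the 9 genes was -0.34 against 0.00 over all genes, 4 of the 9 had an unadjusted p under 0.05 in the lower direction (1.45% of all genes did), and the IAA libraries were both below the controls at 6 of the 9 (14% of all genes). Calr changed most at 6 h, from 115.6 and 84.8 CPM in the controls to 52.4 and 61.2 CPM with IAA, a log2 fold change of -0.81 (95% interval -1.22 to -0.41, adjusted p = 0.611). At 16 h the median was -0.83 against 0.01 over all genes, 5 of the 9 had an unadjusted p under 0.05 (1.06% of all genes), and both IAA libraries lay below both controls at 7 of the 9 (15.1% of all genes). Under heat shock the median was -0.37, with 3 genes at an unadjusted p under 0.05 (0.499% of all genes) and 7 without overlap (12.5%), and under RA it was -0.53, with 1 gene at an unadjusted p under 0.05 (0.249%) and 3 without overlap (9.69%).

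With the replicate number as a block, 5 of the 9 genes fell at 16 h of IAA, against 1.43% of all genes. Their log2 fold changes were -0.95 at Hspa5 (SE 0.129, adjusted p = 1.56e-10), -0.86 at Pdia6 (SE 0.157, adjusted p = 9.24e-06), -0.83 at Calr (SE 0.144, adjusted p = 3.13e-06), -0.83 at Hsp90b1 (SE 0.200, adjusted p = 0.00312) and -0.82 at Pdia4 (SE 0.189, adjusted p = 0.00187). In blocked fits of 2 libraries against 2, here and below, the spread was taken almost wholly from all genes together. Such p-values say little about the spread of each gene itself. Under RA the same block gave 4 genes that fell, Hspa5, Pdia4, Pdia6 and Hyou1, against 0.639% of all genes. Pdia4 there was at 87.3 and 51.0 CPM with RA alone and at 45.2 and 34.0 CPM with RA and IAA, a blocked log2 fold change of -0.77 (SE 0.164, adjusted p = 0.00494). The RA libraries of replicate 1 were above those of replicate 2 at all 9 genes, both with and without IAA.

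The other genes of the ER and the cytosolic heat shock chaperones were counted in the same fit. Of 26 other ER folding factors 1 fell, P4hb, the gene of the classical protein disulfide isomerase (log2 fold change -0.74, SE 0.106, adjusted p = 0.000180), and the median of the 26 was -0.04. Of 13 UPR sensors and factors 0 passed the test and 7 were above 0, and Ppp1r15a (GADD34), which had the largest estimate, was at 0.40 (adjusted p = 0.490). Of 16 tested genes of ER-associated degradation 0 passed (largest estimate -0.23 at Selenos, adjusted p = 0.382), and of 20 genes of the translocon and N-glycosylation 0 passed, with 18 below 0 and a median of -0.13 (largest estimate -0.51 at Ssr3, adjusted p = 0.266). Of 20 cytosolic heat shock chaperones 3 fell, Hspa8 by 1.62, Hsp90ab1 by 0.93 and Hsph1 by 0.53 on the log2 scale (adjusted p = 1.58e-07, 0.00143 and 0.0149), and the median of the 20 was -0.08. The summed level of the 12 stem cell markers was also lower with IAA without overlap in run 2 (1409 to 1594 CPM in the controls and 1248 to 1254 CPM with IAA), under heat shock (2416 to 2534 and 1926 to 2148 CPM) and in B8 run 8, while the ranges overlapped in run 3 (1249 to 1833 and 871 to 1547 CPM), under RA (561 to 831 and 496 to 640 CPM) and in B8 run 6. These sums and those given below mostly follow Esrrb and Tfcp2l1, which reached 1114 and 1184 CPM in C64 and 1260 and 672 CPM in B8. No other of the 12 exceeded 82.1 CPM in any library. Of 11 stem cell markers tested over the 6 contexts, 0 passed and 9 were below 0 (median -0.21), and of 6 primitive endoderm markers 0 passed and all 6 were above 0 (median 0.10). The part of these markers in the chaperone values was not tested.

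In B8 cells, which lack TRF2 as well, IAA gave lower estimates at 8 of the 9 genes (median -0.40 against -0.02 over all genes, of which 52.6% were below 0), but 0 passed the quasi-likelihood test, against 2.63% of all genes that fell and 2.06% that rose. At an unadjusted p under 0.05, 4 of the 9 were lower (9.66% of all genes), namely Pdia6, Hyou1, Canx and Pdia3, of which the likelihood-ratio test called Pdia6 and Hyou1, and DESeq2 called 0. The smallest adjusted p were those of Pdia6 (log2 fold change -0.61, SE 0.182, adjusted p = 0.0724) and Hyou1 (-0.56, SE 0.176, adjusted p = 0.0836). The 4 control and the 4 IAA libraries overlapped at each of the 9 genes, whereas 3.07% of all genes were without overlap in the lower direction.

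The B8 runs differed. In run 8, Hyou1 was at 58.2 and 56.3 CPM in the controls and 31.7 and 30.1 CPM with IAA, and Pdia6 was at 72.7 and 64.6 CPM in the controls and 38.6 and 38.2 CPM with IAA. Within run 8, Hyou1 (log2 fold change -0.85, adjusted p = 0.000799), Pdia6 (-0.79, adjusted p = 0.000575), Pdia3 (-0.60, adjusted p = 0.000315) and Canx (-0.58, adjusted p = 0.000429) fell, against 11.7% of all genes. Calr rose within run 8, from 61.5 and 62.3 CPM to 81.2 and 81.1 CPM (0.44, SE 0.143, adjusted p = 0.0281), against 6.26% of all genes. Both IAA libraries of run 8 lay below both controls at 7 of the 9 genes (32.2% of all genes) and above them at Calr alone (24.6%). Within run 6, the shallower run, 0 of the 9 passed (0.0484% of all genes fell), 0 had an unadjusted p under 0.05, and Calr was at 73.3 and 51.7 CPM in the controls and 62.5 and 55.6 CPM with IAA, which overlap. Without the control library that stood apart, Canx, Pdia3, Pdia6 and Hyou1 fell over both runs, against 7.85% of all genes. Hspa5 was at 105.4, 68.3, 98.98 and 78.9 CPM in the 4 B8 controls and at 77.7, 67.2, 72.9 and 70.4 CPM in the 4 IAA libraries, with the lowest control inside the range of the IAA libraries (log2 fold change -0.28, 95% interval -0.59 to 0.04).

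Cell type markers were counted in the same B8 libraries. Over both runs 6 of the 7 stem cell markers tested were below 0 (median -0.32), among them Esrrb, which fell (-0.51, SE 0.129, adjusted p = 0.0342), and all 6 primitive endoderm markers were above 0 (median 0.40), with 0 past the test. The summed level of the stem cell markers was 1969 to 2043 CPM in the controls and 1366 to 1534 CPM with IAA in run 8, and 1169 to 1624 CPM and 1214 to 1259 CPM, which overlap, in run 6. That of the primitive endoderm markers was 157 to 167 CPM in the controls and 207 to 214 CPM with IAA in run 8, and 238 to 261 CPM and 292 to 305 CPM in run 6, without overlap in either run. Their part in the chaperone values, that of Calr included, was not tested.

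Whether the IAA effect differed between B8 and C64 was tested as an interaction at 6 h. None of the 9 genes passed the quasi-likelihood test (14 of 15338 genes did, 0.0717% of all genes above 0 and 0.0196% below), and 1 had an unadjusted p under 0.05 (3.78% of all genes in the same direction). That gene was Calr, with a log2 difference between the B8 and the C64 effect of 1.02 (SE 0.250, 95% interval 0.50 to 1.54, adjusted p = 0.208), which the likelihood-ratio test and DESeq2 called, as did the fit without the B8 control library that stood apart (0.99, adjusted p = 0.0390, where 0.195% of all genes passed in that direction). For the other 8 genes the intervals of the difference reached from -0.91 (Hyou1) to 0.93 (Hspa5), so differences of that size were not detectable here. In the interactions of IAA with heat shock and of IAA with RA, 0 of the 9 genes passed by the quasi-likelihood test, the likelihood-ratio test or DESeq2. By each of these tests 0 of all genes passed either interaction. By the first, 0 of the 9 had an unadjusted p under 0.05, against 121 of 16961 genes for heat shock and 118 of 17032 for RA.

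In the untreated controls, B8 had lower estimates than C64 of run 2 at all 9 genes (median -0.49 against 0.02 over all genes, of which 47.4% were below 0), with 0 of 9 past the quasi-likelihood test, the likelihood-ratio test or DESeq2 (0 of all genes by the first) and 4 at an unadjusted p under 0.05 (3.58% of all genes). The largest differences were those of Pdia6 (-0.71, adjusted p = 0.828) and Calr (-0.69, adjusted p = 0.826). Pdia6 alone passed with B8 run 6 only (1.91% of all genes were lower) and Calr alone with run 8 only (1.49% lower). Cell line, clone and run cannot be told apart in this comparison.

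Heat shock, which drives cytosolic chaperone genes through HSF1, was compared over both IAA states in C64. Hsp90b1 and Dnajb11 rose, as did 7.25% of all genes, and 0 of the 9 fell, against 8.77% of all genes. The median log2 fold change of the 9 genes was 0.27 against 0.04 over all genes, with 6 above 0 (54.3% of all genes). The libraries without heat shock are the control and IAA libraries of the 6 h comparison.

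Hsp90b1 was at 66.2 and 61.9 CPM with heat shock against 42.9 and 35.0 CPM in the controls, and at 42.7 and 54.1 CPM with heat shock and IAA against 29.5 and 31.8 CPM with IAA. Within each IAA state the heat shock libraries were the higher. The log2 fold change of Hsp90b1 was 0.70 (SE 0.137, 95% interval 0.41 to 0.999, adjusted p = 0.00471), and it passed in all 16 alternatives. Dnajb11 was at 64.2 and 55.5 CPM with heat shock against 44.98 and 31.97 CPM in the controls, and at 46.4 and 46.5 CPM with heat shock and IAA against 28.5 and 33.9 CPM with IAA. It was the only one of the 9 whose 4 heat shock libraries all lay above the 4 others (9.23% of all genes), with a log2 fold change of 0.62 (SE 0.149, 95% interval 0.30 to 0.94, adjusted p = 0.0133). Dnajb11 did not pass without the first IAA library or without the second control library of run 2 (adjusted p = 0.0588 and 0.0562). Without the first library with heat shock and IAA the log2 fold change of Calr was 0.50. Without the second such library that of Pdia3 was -0.76.

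None of the lectin and isomerase genes passed the test. Calr had a log2 fold change of 0.43 (SE 0.139, adjusted p = 0.0525) and Canx of 0.27 (SE 0.119, adjusted p = 0.142), while Pdia3, the isomerase that works with both lectins, had -0.56 (SE 0.186, adjusted p = 0.0594). Pdia3 was at 93.1 and 117.3 CPM with heat shock against 196.5 and 125.1 CPM in the controls, and at 57.0 and 103.4 CPM with both treatments against 122.0 and 107.7 CPM with IAA, so that heat shock libraries were the lower within each IAA state. Pdia6 was at -0.28, Hyou1 at -0.35, Pdia4 at 0.02 and Hspa5 at 0.29, with adjusted p from 0.190 to 0.956. Pdia4 was below 0 under spike-in scaling, under RLE scaling and with DESeq2.

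In the separate IAA states, 0 of the 9 genes passed by the quasi-likelihood test, the likelihood-ratio test or DESeq2. Without IAA, 3 of the 9 had an unadjusted p under 0.05 in the higher direction (7.97% of all genes) and 1 in the lower (8.05%), against 1.57% of all genes that rose and 1.46% that fell after adjustment. The heat shock libraries were both above the controls at Hsp90b1, Calr, Canx and Dnajb11 (23% of all genes) and both below at Pdia3 (23.2%). With IAA, 2 had an unadjusted p under 0.05 in the higher direction (7.65% of all genes), 0.698% of all genes rose and 0.704% fell, and the same 4 genes were higher without overlap (24.2%), with Pdia3 and Pdia6 lower without overlap (24.2%). Leaving out the second heat shock library gave 4 calls without IAA, Hspa5, Hsp90b1 and Dnajb11 higher (5.73% of all genes) and Pdia3 lower (9.62%). Leaving out the second library with heat shock and IAA gave 3 calls with IAA, Pdia3, Pdia6 and Hyou1 lower (11.5% of all genes).

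**Figure D4:**
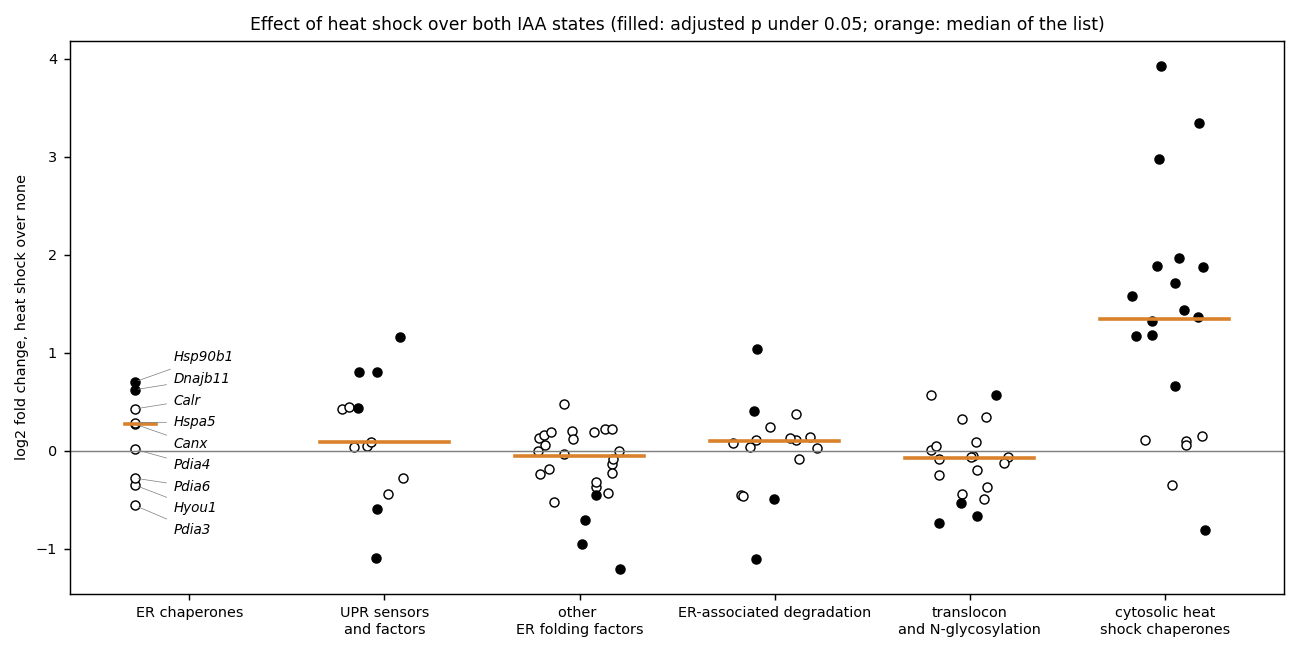
Log2 fold change of Pol II reads with heat shock over without, over both IAA states, for each gene of 6 lists; filled points passed an adjusted p of 0.05 and orange lines are list medians. The 9 ER chaperone genes, with their names, lie between -0.56 and 0.70, and 14 of 20 cytosolic heat shock chaperones are filled above 0 around a median of 1.34.

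Against that, 14 of 20 cytosolic heat shock chaperones rose and 1 fell (Hspa4), with a median of 1.34. Hsph1 rose by 3.93, Hspa1a by 3.35, Hspa1b by 2.97 and Hspa4l by 1.97 on the log2 scale (adjusted p = 7.37e-08, 0.000287, 4.18e-05 and 2.2e-05), where Hspa1a and Hspa1b are near-identical copies whose reads may be split between them. Among the 13 UPR sensors and factors 4 rose, Ppp1r15b (1.16, adjusted p = 0.00585), Ppp1r15a (0.80, adjusted p = 0.0281), Xbp1 (0.80, adjusted p = 0.00294) and Eif2ak3, and 2 fell, Mbtps1, the gene of a protease that cuts ATF6 (-1.10, adjusted p = 0.00878), and Atf4. Of 26 other ER folding factors 4 fell, Erp29 (-1.20, adjusted p = 0.000617), Sec63 (-0.95, adjusted p = 0.00128), Dnajc10 (-0.71, adjusted p = 0.0137) and the BiP exchange factor gene Sil1 (-0.45, adjusted p = 0.0239), and 0 rose. Of 16 genes of ER-associated degradation 2 rose (Herpud1 and Ubxn4) and 2 fell (Derl3 and Vcp), and of 20 genes of the translocon and N-glycosylation 1 rose (Stt3a) and 3 fell (Ssr1, Ssr4 and Stt3b). The medians of these 4 lists lay between -0.07 and 0.10. The summed level of the stem cell markers, mostly Esrrb and Tfcp2l1, was higher with heat shock too. It was 2416 to 2534 CPM against 1409 to 1594 CPM in the controls and 1926 to 2148 CPM against 1248 to 1254 CPM under IAA. Of 11 stem cell markers tested 3 rose, Zfp42, Tfcp2l1 and Dppa4. Of 5 mesoderm markers Eomes and Kdr rose (median of the 5 0.58), and of 2 neuroectoderm markers tested Pax6 rose (median 0.70). The part of these markers in the chaperone values was not tested.

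RA, which starts the differentiation of mESCs, was compared over both IAA states in run 3. Without a block 0 of the 9 genes passed the quasi-likelihood test, the likelihood-ratio test or DESeq2, against 0.593% of all genes that rose and 0.822% that fell, 1 had an unadjusted p under 0.05 (6.33% of all genes in the higher direction), and 8 of the 9 estimates were above 0, with a median of 0.21 against 0.03 over all genes (53.9% above 0). The libraries without RA are those of the 16 h comparison. Under spike-in scaling 5 of the 9 were above 0, and Calr, Pdia3 and Hsp90b1 changed sign. With the replicate number as a block Pdia4, Hspa5 and Pdia6 rose, against 6.23% of all genes.

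Pdia4, the gene of the isomerase ERp72, was at 87.3 and 51.0 CPM with RA against 55.7 and 29.9 CPM in the controls, and at 45.2 and 34.0 CPM with RA and IAA against 26.7 and 20.4 CPM with IAA. Within a replicate number the RA library was the higher in each of these 4 pairs, and with IAA the groups did not overlap. Its log2 fold change was 0.72 (SE 0.233, adjusted p = 0.196) without the block and 0.72 (SE 0.125, adjusted p = 0.000107) with it. Hspa5 had 0.42 (SE 0.220, adjusted p = 0.478) without the block and 0.39 (SE 0.103, adjusted p = 0.00879) with it, and Pdia6 had 0.43 (SE 0.295, adjusted p = 0.634) and 0.38 (SE 0.119, adjusted p = 0.0331). Canx was the one gene below 0, at -0.08 in both fits.

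**Figure D5:**
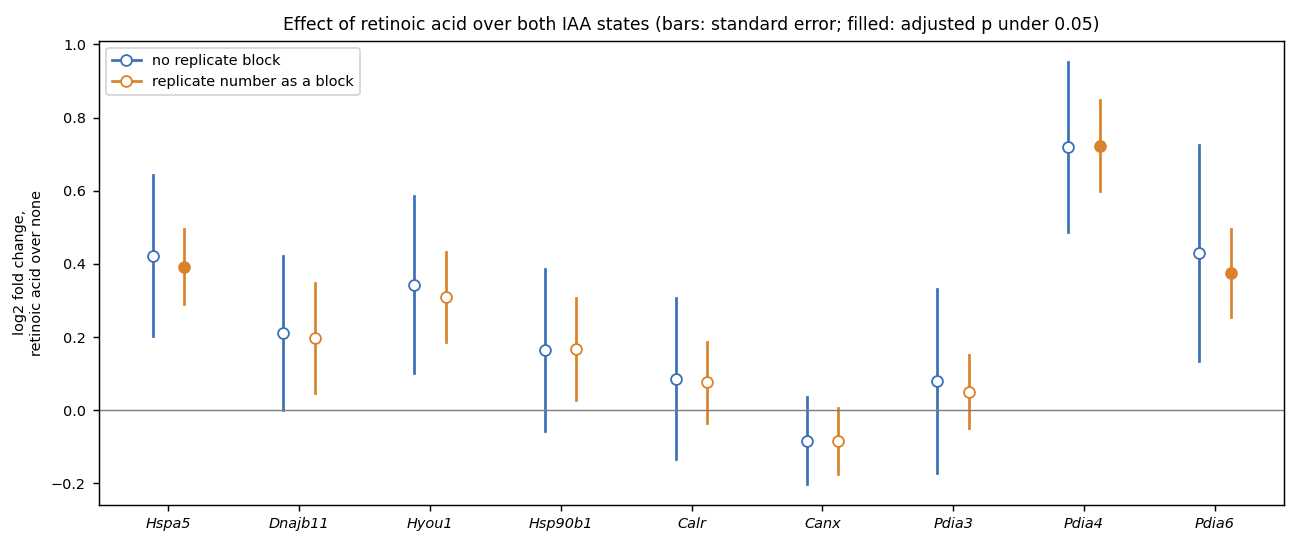
Log2 fold change of Pol II reads with RA over without, over both IAA states, for each chaperone gene, without a replicate block (blue) and with the replicate number as a block (orange); bars are standard errors and filled points passed an adjusted p of 0.05. Filled points are the blocked values of Hspa5, Pdia4 and Pdia6, and the estimates of the 2 fits are close to each other at every gene.

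Without IAA, RA gave 0 calls among the 9 genes by each of the 3 tests and 0 at an unadjusted p under 0.05 against 2.47% of all genes in the higher direction. After adjustment 0.0122% of all genes rose and 0.00612% fell. With the block Pdia4 (0.70, SE 0.157, adjusted p = 0.000253) and Hyou1 (0.46, SE 0.148, adjusted p = 0.0230) rose, against 4.75% of all genes. With IAA, 0 of the 9 passed by each of the 3 tests, as did 0 of all genes by the quasi-likelihood test, and 1 had an unadjusted p under 0.05 (1.86% of all genes); with the block 0 of the 9 passed, against 0.750% of all genes that rose. Both RA libraries lay above both others at 0 of the 9 genes without IAA (17.1% of all genes) and at Hspa5 and Pdia4 with IAA (16.4%). Of the other lists, 1 of 26 ER folding factors rose, Qsox1 (0.71, adjusted p = 0.0263). None passed among the UPR factors (largest Mbtps2, -0.51, adjusted p = 0.180), ER-associated degradation (Rnf5, 0.69, adjusted p = 0.277), the translocon and N-glycosylation (Ssr3, 1.04, adjusted p = 0.219) or the cytosolic chaperones (Hspb8, -1.16, adjusted p = 0.234). Over these libraries the summed level of the stem cell markers was 561 to 831 CPM with RA against 1249 to 1833 CPM in the controls and 496 to 640 CPM against 871 to 1547 CPM under IAA, with all 11 markers tested below 0 and Esrrb called. All 6 primitive endoderm markers were below 0 too (median -0.28), of which Foxa2 fell (-1.21, adjusted p = 0.0377), as were both neuroectoderm markers tested (median -0.47). The part of these markers in the chaperone values was not tested.

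Read against the promoters, the 3 genes that fell with IAA over all 6 contexts, Hspa5, Pdia6 and Hsp90b1, each held an ERSE, and the ERSE holders Calr and Canx had log2 fold changes of -0.52 and -0.24. Pdia3 and Pdia4, with no ERSE or ERSE-II, had -0.43 and -0.47, inside that range. Of the 18 tested genes outside the list whose promoters hold an ERSE, 0 passed the quasi-likelihood test and 11 were below 0, with a median of -0.04, and the lowest was Hnrnpa3 (-0.45, unadjusted p = 0.0019, adjusted p = 0.119). On the deposited TATA list, 1.65% of the 3949 tested genes outside the chaperone list fell with IAA, against 0.733% of all genes, and the median was -0.00. Hspa5 and Pdia6 are on that list, as are Calr and Hyou1, which did not pass, and Hsp90b1 is on the TATA-less list.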

How the data were processed

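The authors aligned reads with Bowtie2 to mm10, subsampled them within each run and counted them per whole gene with featureCounts 2.0.0 (paired ends, gene names, no strand option, duplicates kept, reads over overlapping genes left out). The deposited counts are whole numbers and were used as they stand, and the deposited spike-in read numbers were averaged per group and used only as an alternative scaling. Depth is given with the results. The 9 genes and the gene lists were chosen with earlier results of these data known.

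Counts were fitted with edgeR 4.0.16 in R 4.3.3 (quasi-likelihood F test after TMM scaling, genes kept by filterByExpr at 20 reads, Benjamini-Hochberg over all genes tested, threshold 0.05) on the whole table, and each comparison used only its own groups, with run or context as a term where several entered. The study's methods use the likelihood-ratio test, which was run as an alternative, as was DESeq2 1.42.0. Printed CPM come from 1 scaling of all 24 libraries. Fold changes come from each fit without edgeR's prior count, which was used only where that estimate was not finite or was extreme. Intervals are at 95%. A gene was named if it was one of the 9, or among the up to 4 called genes of a list with the largest change (else its largest).

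Whether replicate numbers pair libraries was checked by correlating deviations from group means. In run 3 all 6 correlations lay between 0.378 and 0.600, so blocked values stand beside the results there. In run 2 the count columns match groups but not numbered samples, and their name sets gave 0.0907 to 0.459.

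Promoter sequences are from RefSeq (GRCm38.p6). Replicate libraries differed beyond counting noise, and 0 count columns were left unmapped.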

Additional observations from a re-analysis of the deposited data

Results flagged for a closer look

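Calr was selected for a closer look because the effect of IAA at 6 h differed between B8 and C64 in a test of the difference itself by 2 of the 3 tools, the likelihood-ratio test and DESeq2, but not by the quasi-likelihood test. The log2 difference, B8 effect minus C64 effect, was 1.02 (SE 0.250, adjusted p = 0.208 by the quasi-likelihood test). In C64 the log2 fold change of Calr with IAA was -0.81, within B8 run 6 it was -0.13 and within B8 run 8 it was 0.44. The difference was above 0 in 20 of 20 alternatives, between 0.79 and 1.23, and past the threshold in 3, with adjusted p from 0.0390 to 1. Cell line, clone and run cannot be told apart here.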

How the results depend on the processing

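Of 2331 values of the 9 genes recomputed under the alternatives, 2098 kept their direction and side of the threshold, 86 passed it only in the alternative, 24 only in the main fit, 123 changed sign with neither value past it, and 0 changed sign with a value past it. The number of the 9 genes past the threshold moved as follows. With a replicate block it was 4 at 6 h of IAA, 5 at 16 h, 1 for heat shock without IAA, 3 for IAA under heat shock, 2 for RA without IAA, 4 for IAA under RA, 4 for heat shock and 3 for RA over both IAA states, and 8 over all contexts, as it was with the block in run 3 only. In B8 the block gave 0, and the correlations of deviations were -0.0347 in run 6 and 0.00694 in run 8. No paired analysis was possible because no numbers are shared for B8 against C64. The likelihood-ratio test gave 2 for IAA in B8, 1 for the cell line interaction, 4 for heat shock over both states and 7 over all contexts, and DESeq2 gave 1 for the interaction and 8 over all contexts. For heat shock over both states the likelihood-ratio test called 3283 of all 16961 genes. Within B8 run 8 it was 5. For B8 against C64 it was 1 in a joint fit and 1 with run 6 or run 8 alone. Without each library in turn it ranged from 0 to 1 at 16 h of IAA (Hspa5 without the second control) and for the cell line interaction, 0 to 4 for heat shock without IAA and for IAA in B8, 0 to 3 for heat shock with IAA, 1 to 3 for heat shock over both states and 2 to 5 over all contexts. A group left with 1 library is assumed to vary like the others. The libraries concerned are named with the results. The cause was not tested. The block in run 3 only, the 4 C64 contexts alone, the fits with 1 B8 run or without run 6, and B8 with the genes of the C64 tables were chosen after seeing the data.

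Over all genes the number called was 7 at 6 h of IAA (29 by the likelihood-ratio test, 27 by DESeq2, 193 with the block), 0 at 16 h (353 with the block), 0 under heat shock (108 with the block), 0 under RA (171 with the block), 717 in B8 (1086 by the likelihood-ratio test, 377 with the block, 57 with spike-in scaling, 15 within run 6, 2666 within run 8), 144 over all contexts (256 by the likelihood-ratio test, 323 by DESeq2, 461 with the block, 26 in C64 alone), 494 for heat shock without IAA (792 by the likelihood-ratio test, 1373 with the block, 159 without a filter), 231 with IAA (765 by the likelihood-ratio test, 439 by DESeq2, 1609 with the block, 955 without a filter), 2717 over both states (4463 with the block), 3 for RA without IAA (132 by the likelihood-ratio test, 83 by DESeq2, 1863 with the block), 0 with IAA (72, 66 and 298 in the same order), 241 over both states (578, 531 and 2298), 14 for the cell line interaction (51 by the likelihood-ratio test, 53 by DESeq2, 4 with the block, 0 with spike-in scaling) and 0 for B8 against C64 (21 by the likelihood-ratio test, 3 by DESeq2, 222 in the joint fit, 535 and 785 with run 6 and run 8 alone). Scaling moved the split of higher to lower calls from 315 and 402 to 657 and 253 by total counts in B8, from 13 and 131 to 49 and 104 over all contexts, from 1229 and 1488 to 1592 and 1247 for heat shock over both states, from 115 and 116 to 127 and 854 by spike-in for heat shock with IAA, from 256 and 238 to 356 and 175 without it, and from 101 and 140 to 63 and 455 for RA. Spike-in scaling set the median of all genes to 0.18 at 6 h and -0.26 at 16 h of IAA (9 genes: -0.16 and -1.09), to -0.15 for RA over both states (9 genes: 0.02) and to -0.40 for B8 against C64 (9 genes: -0.92). With 1 spike-in factor per group, all genes of a comparison shift by nearly the same amount. The distance of the 9 genes from the median was thus set in advance and is no check of the result. Spike-in reads were 0.531% and 8.44% of the mouse reads in the 2 C64 controls of run 3. For the B8 controls of run 6 they were held only for the library that stood apart. The B8 libraries of run 6 are the shallowest, with 900651 to 1157308 reads.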

Other observations

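Across the 16 C64 libraries, the genes outside the list whose log2 CPM most resembled the mean of the 9 chaperone genes, each centred, were Snx9 (Pearson r = 0.917), Pkp4 (0.908), Ggcx (0.903), Mark3 (0.903) and Manf (0.897), out of 16631 genes compared. Manf encodes a secreted protein of the ER stress response, and Ggcx an ER enzyme that carboxylates glutamate residues. The points share libraries, runs and depth, so these values are a description. Among the 9 genes themselves the values ran from 0.696 for Canx and 0.749 for Pdia3 to 0.930 for Pdia6 and 0.936 for Calr, each against a mean that includes it.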
